A study of Mus musculus with 8 samples.

Results

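The AP-1 transcription factors described here are 8 genes taken by name from a count table of 41730 rows: the Fos family (Fos, Fosb, Fosl1 and Fosl2), the Jun family (Jun, Junb and Jund) and the small Maf protein gene Maff. The table holds RNA-seq counts of spheroids grown in hanging drops from 4T1 cells, a mouse mammary carcinoma line derived from a BALB/c mouse. A lentiviral vector had given the cells either a scrambled hairpin as control (shCtrl, 4 libraries) or one that targets Tlr7, the gene of a receptor that senses single-stranded RNA in endosomes (shTlr7, 4 libraries). All 8 libraries carry a lentiviral hairpin, and no untransduced library and no second Tlr7 hairpin was analysed here. The comparison asks how transcripts of the cancer cells differ when Tlr7 is targeted.

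AP-1 is a dimer of basic leucine zipper proteins. Fos proteins pair with Jun proteins, Jun proteins can also pair with each other, and the dimers bind DNA at the AP-1 site. Fos, Fosb, Jun and Junb are immediate early genes, which are transcribed within minutes of a growth factor, stress or mechanical signal through ERK, JNK and p38 kinases, while Fosl1 and Fosl2 usually follow later and last longer. In carcinoma cells AP-1, and Fosl1 in particular, is known for driving genes of invasion, matrix breakdown and wound repair. Maff lacks a transactivation domain and acts through its partners.

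Library totals ran from 18.1 to 93.8 M counts. The targeted gene was barely detected, Tlr7 having 2 or 3 counts in each shCtrl library and 0, 4, 3 and 0 in the shTlr7 libraries, too few to check the knockdown. The libraries numbered 4 stood apart from the rest of their groups: the chi-square per degree of freedom against the other libraries of the group ran from 11.5 to 21.9 for them and from 2.23 to 10.2 for all other pairs. The labels do not say what a replicate number marks, nor that libraries came from separate cultures, so a p-value here speaks of the spread among the libraries, which may be technical. In bulk RNA, fewer cells of a type and less RNA per cell cannot be told apart. Epithelial markers were abundant, summing to between 6254 and 6771 CPM (read counts scaled to the library's TMM-adjusted total) in shCtrl and between 4797 and 5269 CPM in shTlr7, with 2 of 9 tested members higher, 5 lower and Cldn7 at 0. Leukocyte markers summed to 23.2 to 28.1 CPM in shCtrl and 31.3 to 44.4 CPM in shTlr7, nearly all of it Cd68, while Adgre1 and Lyz2 were at 0. Fibroblast markers summed to 44.7 to 46.9 CPM and 44.7 to 50.1 CPM, mostly Pdgfra, with Dpt and Thy1 at 0. Endothelial markers stayed at or below 3.61 CPM, with Emcn, Erg and Cldn5 at 0.

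Fos, Fosb, Junb and Jun were the 4 tested members that varied most between libraries when all 8 were used. The stretches of DNA just upstream of their annotated start sites are therefore shown. They come from RefSeq windows on GRCm38.p6, which held 7 of the 8 members (all but Fosl1), and are written 5′ to 3′ on the gene's strand up to the last base before the start site. Capitals mark matches to TGACG (the core of a cyclic AMP response element, CRE), to TGACATCA (a variant AP-1 site) and, on the gene's strand only, to TATAAA, the core promoter motif near many start sites.
Fos, chr12:85473753-85473889, plus strand: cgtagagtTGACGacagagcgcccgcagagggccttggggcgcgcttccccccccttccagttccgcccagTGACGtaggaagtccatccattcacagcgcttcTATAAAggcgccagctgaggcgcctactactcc
Fosb, chr7:19310046-19310165, minus strand: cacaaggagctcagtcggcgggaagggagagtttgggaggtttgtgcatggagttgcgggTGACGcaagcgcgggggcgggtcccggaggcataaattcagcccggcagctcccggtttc
Junb, chr8:84978749-84978868, minus strand: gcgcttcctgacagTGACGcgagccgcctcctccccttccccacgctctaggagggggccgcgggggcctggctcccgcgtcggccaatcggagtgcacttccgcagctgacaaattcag
Jun, chr4:95052223-95052342, minus strand: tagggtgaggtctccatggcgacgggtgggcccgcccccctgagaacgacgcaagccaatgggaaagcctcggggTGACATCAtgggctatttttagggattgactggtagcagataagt

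Fos, Fosb and Junb each had TGACG on the gene's strand within the 250 bases searched, Fos at positions -129 and -66 from the start site, Fosb at -60 and Junb at -106 (first base of each match). Searched on both strands, TGACG was in 17.8% of all 32851 RefSeq windows of that length, so a match is common. Jun held TGACATCA at -45 instead, a motif in 2.93% of windows, and no TGACG. One of the 3 Maff windows held the full CRE, TGACGTCA, at -29 (1.55% of windows, and a match that contains TGACG on both strands), and another held TGACATCA at -45 and TGACG on the opposite strand. The AP-1 site TGACTCA (4.46% of windows) and the CArG box, which binds serum response factor (1.47%), were in none of the members' windows. Nor did the Fosl2 and Jund windows hold any of these motifs. The search went no farther than 250 bases upstream, so it cannot show whether a member has such a site beyond that. The motifs were chosen after the windows had been read, and a match describes letters, not a bound site.

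Of the 8 members, 7 had enough counts to be tested. Fosl2 was lower in shTlr7 past the threshold (edgeR quasi-likelihood test, Benjamini-Hochberg adjusted p under 0.05), while 6 members were not called and none was higher. At an unadjusted p under 0.05, 2 members were lower and 0 higher. DESeq2 called 2 members lower and 0 higher, where it called 20.8% of all genes lower and 20.6% higher. With limma-voom 3 members were lower and 0 higher, beside 30.7% and 33.3% of all genes. Over all 13393 genes tested, 56.1% were called, 26.8% lower and 29.3% higher (18.6% and 41.2% under scaling by library size alone). Of the 7 tested members, 14.3% were called lower. Their median log2 fold change was -0.39, beside 0.01 over all tested genes, with 5 fold changes below 0 and 2 above. Of the members, 2 (Fosb and Fosl2, both lower) had CPM ranges without overlap between groups, as did 49.8% of all tested genes, 26% higher and 23.8% lower. With both libraries numbered 4 left out, 5 members were called, Fos, Fosb, Fosl2 and Junb lower and Jun higher, where 61.3% of genes were called, 30% lower and 31.3% higher. The same 5 members then had groups without overlap, as did 65.3% of all tested genes, 32% lower and 33.2% higher.

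**Figure D1:**
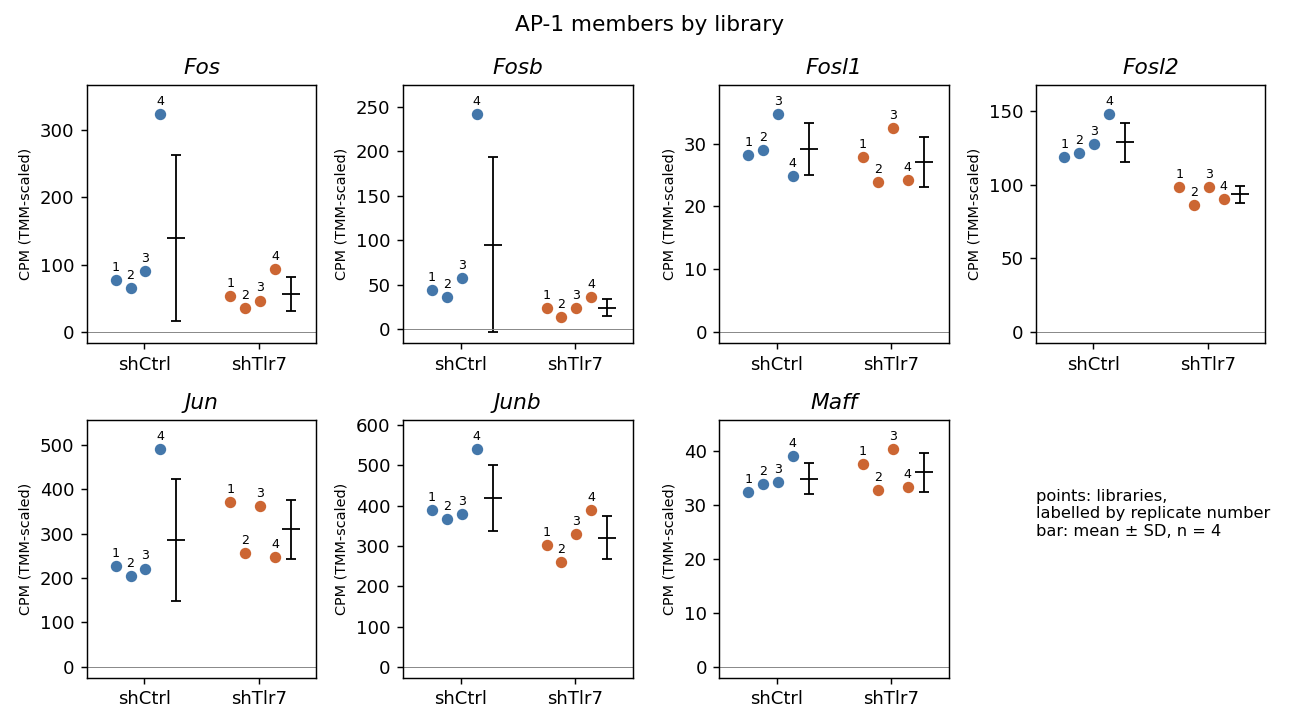
Normalised CPM (y axis, TMM-scaled, each panel with its own scale) of the 7 tested AP-1 members in 4 shCtrl (blue) and 4 shTlr7 (orange) libraries, numbered by replicate, with mean ± SD (n = 4). The shCtrl library numbered 4 lies far above the rest for Fos (323 CPM), Fosb (242 CPM) and Jun (491 CPM), and Fosl2 separates the groups without overlap.

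Fos, the partner of Jun in the classical AP-1 dimer (chromosome 12, 85473890 to 85477274, GRCm38.p6), was at 77.0, 64.8, 90.7 and 323 CPM in shCtrl replicates 1 to 4. In shTlr7 replicates 1 to 4 it was at 53.2, 35.0, 46.7 and 93.0 CPM. The library numbered 4 was the highest of each group. The groups overlapped through shTlr7 replicate 4, which lay above shCtrl replicates 1 to 3, while shTlr7 replicates 1 to 3 lay below every shCtrl library. The mean was 139 ± 123 CPM (SD, n = 4) in shCtrl and 57.0 ± 25.2 CPM (SD, n = 4) in shTlr7, a log2 fold change of -1.29 ± 0.65 (SE) that missed the threshold (edgeR adjusted p = 0.140). It was -0.46 (edgeR adjusted p = 0.350) without shCtrl replicate 4, and -0.82 ± 0.22 (edgeR adjusted p = 0.0312) without both libraries numbered 4.

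Fosb, a Fos paralogue induced by the same signals (chromosome 7, 19302696 to 19310118), had a profile close to that of Fos. Its level was 44.0, 36.6, 58.1 and 242 CPM in shCtrl replicates 1 to 4, against 23.4, 13.8, 24.4 and 36.1 CPM in shTlr7 replicates 1 to 4. All 4 shTlr7 libraries lay below all 4 shCtrl libraries, by a margin of under 1 CPM between shTlr7 replicate 4 and shCtrl replicate 2. Groups separated in this direction for 23.8% of all tested genes. The log2 fold change of -1.99 ± 0.76 (SE) missed the threshold (edgeR adjusted p = 0.0655). It was -0.95 (edgeR adjusted p = 0.0795) when shCtrl replicate 4 was left out and -1.23 ± 0.33 (edgeR adjusted p = 0.0297) when both libraries numbered 4 were. The ratio of Fosb to Fos CPM, looked at after the values were seen, was 0.571, 0.565, 0.640 and 0.749 in shCtrl and 0.440, 0.394, 0.522 and 0.388 in shTlr7. The shTlr7 ratios were all below the shCtrl ratios, a difference that was not tested.

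Fosl2, which encodes Fra-2 (chromosome 5, 32136472 to 32157840), was the member with the clearest separation. It was at 119, 121, 128 and 148 CPM in shCtrl replicates 1 to 4 and at 98.4, 86.4, 98.4 and 90.5 CPM in shTlr7 replicates 1 to 4. The highest shTlr7 library lay below the lowest shCtrl library, and the libraries numbered 4 did not stand out in shTlr7. Fosl2 fell from 129 ± 13.3 to 93.4 ± 6.01 CPM (SD, n = 4), a log2 fold change of -0.47 ± 0.07 (SE; edgeR adjusted p = 1.05e-04). It was called in all 20 alternative fits, with fold changes between -0.53 and -0.36.

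Fosl1, which encodes Fra-1 (chromosome 19, 5447698 to 5455938), did not separate the groups. Its levels were 28.2, 29.1, 34.7 and 24.8 CPM in shCtrl and 27.9, 23.8, 32.5 and 24.2 CPM in shTlr7. The ranges overlapped almost wholly, and the libraries numbered 4 were among the lowest of their groups, unlike those of Fos and Fosb. The log2 fold change was -0.11 ± 0.12 (SE; edgeR adjusted p = 0.444), and no alternative fit brought it past the threshold. Of its annotated exon bases, 57.2% also lie in exons of Ccdc85b on the opposite strand. No source used here says whether the counting used strand, and without it reads in the shared bases cannot be assigned to either gene. Ccdc85b, named for this overlap, was at 47.9 to 51.3 CPM in shCtrl and 51.6 to 58.6 CPM in shTlr7.

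Jun, the main transactivating partner and a substrate of JNK kinases (chromosome 4, 95049036 to 95052222), had another profile than Fos. It was at 227, 204, 221 and 491 CPM in shCtrl replicates 1 to 4 and at 371, 257, 363 and 247 CPM in shTlr7 replicates 1 to 4. Among the libraries numbered 1 to 3, every shTlr7 library was above every shCtrl library, but shCtrl replicate 4 was the highest of all 8 and shTlr7 replicate 4 the lowest of its group. Over all libraries the log2 fold change was 0.11 ± 0.34 (SE; edgeR adjusted p = 0.800), with means of 286 ± 137 and 310 ± 66.4 CPM (SD, n = 4). It became 0.50 (edgeR adjusted p = 0.0685) without shCtrl replicate 4 and 0.59 ± 0.17 (edgeR adjusted p = 0.0387) with both libraries numbered 4 left out. The sign turned, to -0.02, without shCtrl replicate 2. An antisense gene, Junos, shares 7.28% of the Jun exon bases. Junos, named for this overlap, fell from 22.6 to 28 CPM in shCtrl to 13.1 to 18.0 CPM in shTlr7 (edgeR adjusted p = 9.00e-05).

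Junb, a Jun paralogue that activates many AP-1 sites more weakly than Jun (chromosome 8, 84976909 to 84978748), had its lowest values in shTlr7. It was at 390, 366, 380 and 541 CPM in shCtrl and 302, 261, 329 and 390 CPM in shTlr7 replicates 1 to 4. The library numbered 4 was again the highest of each group, and shTlr7 replicate 4 was at the level of shCtrl replicate 1. The log2 fold change of -0.39 ± 0.17 (SE) missed the threshold (edgeR adjusted p = 0.0838). It passed without shTlr7 replicate 4 (-0.50, edgeR adjusted p = 0.0359) and with both libraries numbered 4 left out (-0.36 ± 0.08, edgeR adjusted p = 0.00574). Without shCtrl replicate 4 it was -0.25 (edgeR adjusted p = 0.177). Exons of Prdx2 on the opposite strand cover 7.52% of the Junb exon bases. Prdx2, named for this overlap, fell from 314 to 339 CPM in shCtrl to 233 to 261 CPM in shTlr7 (edgeR adjusted p = 6.64e-06).

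The ratio of Jun to Junb CPM, looked at after the values were seen, was 0.583, 0.558, 0.582 and 0.907 in shCtrl and 1.23, 0.984, 1.10 and 0.635 in shTlr7. Jun therefore had the higher CPM of the pair in shTlr7 replicates 1 and 3 alone, and the groups overlapped through the libraries numbered 4. These CPM are not scaled by transcript length. Per kilobase of transcript, Junb was above Jun in shTlr7 replicates 1 and 3 as well (167 against 116 and 182 against 114).

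Jund (chromosome 8, 70697739 to 70700616), the Jun family gene that most cells express constantly, could not be followed. It had 1 count in each of shTlr7 replicates 2 and 3 and 0 counts in the other 6 libraries, where 3 counts would correspond to 0.0583 to 0.166 CPM. The table holds a further row for a copy of Jund, which was at 0 in all 8 libraries. Of the 1729 genes that have such a copy and a row of their own, 1331 totalled less than 10 counts in their own row, and no other member has a copy. Of the Jund exon bases, 52.6% also lie in exons of Gm11175, named for this overlap, on the opposite strand. With so few counts, the Jund row is not used as a measure of its transcript, and why it is near 0 was not tested.

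Maff (chromosome 15, 79346621 to 79359078) did not separate the groups. Its values were 32.5, 33.9, 34.3 and 39.2 CPM in shCtrl and 37.7, 32.8, 40.5 and 33.4 CPM in shTlr7. The groups overlapped throughout. The log2 fold change was 0.04 ± 0.08 (SE; edgeR adjusted p = 0.670), and none of 20 alternative fits called it.

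**Figure D2:**
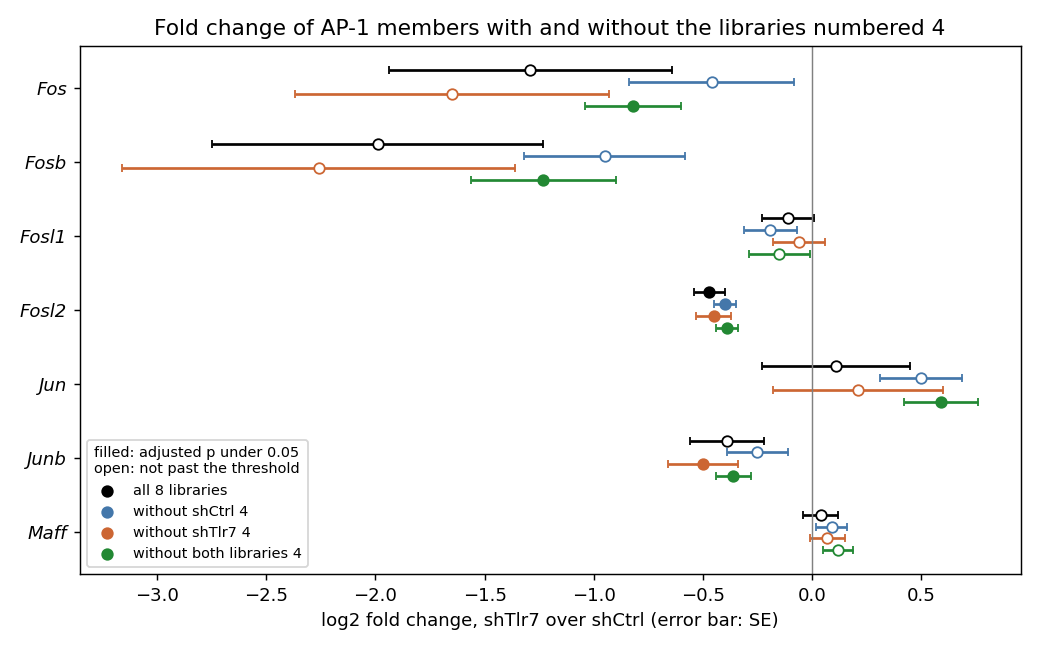
Log2 fold change of shTlr7 over shCtrl (x axis, error bars SE) for the 7 tested members with all 8 libraries, without shCtrl replicate 4, without shTlr7 replicate 4 and without both; filled points have an edgeR adjusted p under 0.05. Fosl2 is filled in all 4 fits, Junb without shTlr7 replicate 4 and without both libraries numbered 4, and Fos, Fosb and Jun without both.

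The spread between libraries set Fos and Fosb apart from nearly all other genes. The biological coefficient of variation within groups, which edgeR estimates per gene, had a median of 6.48% over the 13393 tested genes. Fosb had 66.6%, the highest of all of them, Fos 59.7% (rank 5) and Jun 33.1% (rank 30). Junb had 16.3% (rank 858), Fosl1 11.4%, Maff 7.67% and Fosl2 7.20%. With all 8 libraries, the Fos and Jun genes known as immediate early were thus the most variable members. Leaving out both libraries numbered 4 lowered the coefficient to 25.8% for Fosb, 18.0% for Fos and 14.1% for Jun, still above 99.3% of tested genes, whose median was then 4.47%. Fosl1 stayed at 11.25% and then lay above Junb, which fell to 6.85%, so the order of the members depends on these libraries.

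The libraries numbered 4 shared part of this pattern. Relative to the mean of the other 3 libraries of its group, shCtrl replicate 4 was 5.23 times as high in Fosb, 4.17 times in Fos, 2.26 times in Jun and 1.43 times in Junb. The same ratios in shTlr7 replicate 4 were 1.76 for Fosb, 2.07 for Fos, 0.749 for Jun and 1.31 for Junb. Fos, Fosb and Junb were thus highest in the library numbered 4 of both groups, whereas Jun was highest in 1 and lowest in the other. Being highest in both was found for 3 of 7 tested members and for 18.2% of all tested genes. A ratio above 2 in shCtrl replicate 4 was found for 3 of 7 tested members and for 0.164% of all tested genes.

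Many other immediate early genes were also highest in shCtrl replicate 4. Of 31 tested, 22 were highest there among the 4 shCtrl libraries (71%), beside 36.3% of all tested genes, and 5 were highest in shTlr7 replicate 4 (16.1%, beside 30.3%). In shCtrl replicate 4, 3 of the 31 (9.68%) were more than 2 times as high as the mean of the other 3 libraries, and the median log2 ratio was 0.23, beside 0.51 for the AP-1 members. The same medians in shTlr7 replicate 4 were -0.19 and -0.06. Egr1, a zinc finger factor of the same response, was at 155, 141, 159 and 385 CPM in shCtrl and 145, 120, 162 and 191 CPM in shTlr7 (log2 fold change -0.44, edgeR adjusted p = 0.365, and 0.02 without shCtrl replicate 4). In log2 units, the ratio of shCtrl replicate 4 to the mean of the other 3 was 1.53 for Btg2 and 1.51 for Zfp36, both chosen after their values were seen. What distinguishes these libraries was not tested.

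**Figure D3:**
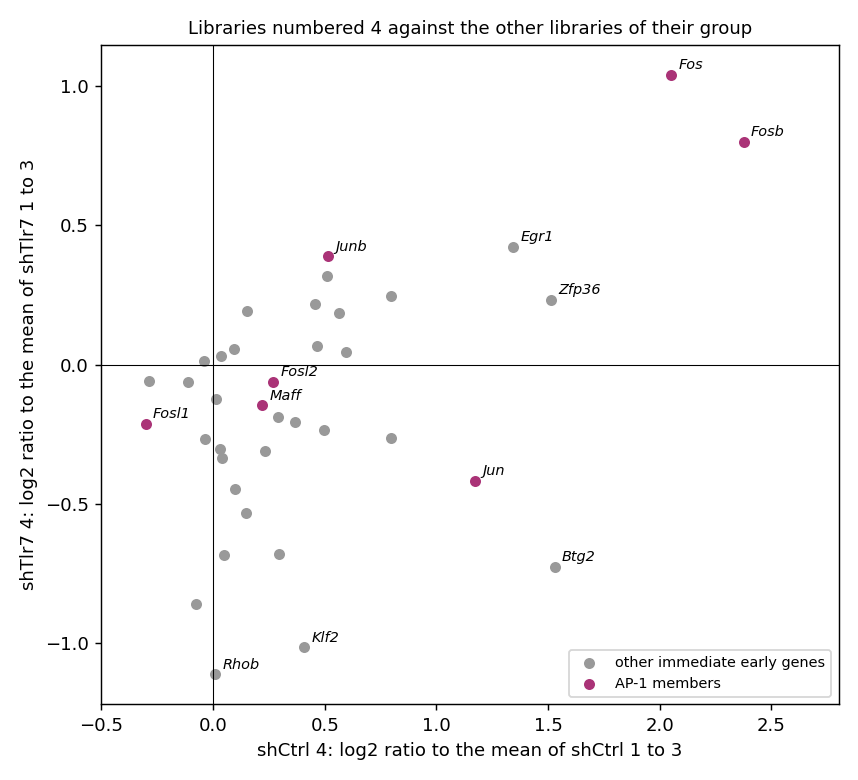
Log2 ratio of the library numbered 4 to the mean of replicates 1 to 3, in shCtrl (x axis) and shTlr7 (y axis), for the 7 tested AP-1 members (purple) and 31 other immediate early genes (grey). Fos (2.05 and 1.04) and Fosb (2.38 and 0.80) lie at the upper right, while Jun (1.17 and -0.42) is high in shCtrl replicate 4 and low in shTlr7 replicate 4.

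Levels of different genes were compared as CPM per kilobase of the longest transcript matched to RefSeq. Junb was the most abundant of the tested members, which leave Jund out, in each group. It was at 232 ± 45.2 CPM per kb (SD, n = 4) in shCtrl and 177 ± 29.8 in shTlr7, followed by Jun at 89.7 ± 42.9 and 97.1 ± 20.8. Fos stood at 65.9 ± 58.5 and 27.0 ± 11.9 CPM per kb, and in shCtrl its range overlapped that of Jun. Below them, Fosb, Fosl2, Maff and Fosl1 had mean levels of 25.2, 19.7, 17.9 and 15.7 CPM per kb in shCtrl, and Fosb had the widest range, from 9.69 to 64.0. In shTlr7 the corresponding means were 6.46, 14.3, 18.4 and 14.5 CPM per kb. Fosb was thus the lowest tested member there, its highest library lying below the lowest library of the other 6. It was also the lowest tested member in each of shCtrl replicates 1 to 3, at 11.63, 9.69 and 15.35 CPM per kb. Its higher shCtrl mean therefore rests on replicate 4. The shCtrl order of the 4 means also rests on the length used: per kb of all annotated exons, Fosb was at 15.2, Fosl1 at 14.4, Maff at 13.5 and Fosl2 at 13.3.

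The make-up of the Fos family differed between libraries. Fos made up 41.2% to 44.9% of the summed Fos-family level per length in shCtrl replicates 1 to 3 and 60.5% in shCtrl replicate 4. In shTlr7 it made up 35.9% to 41.1% in replicates 1 to 3 and 54.8% in replicate 4. Fosb contributed 13% to 25.3% in shCtrl and 7.88% to 11.9% in shTlr7, without overlap. Fosl1 and Fosl2 contributed 16.1% to 28.5% and 17.2% to 28.6% in shTlr7, against 5.25% to 20.9% and 8.94% to 24.9% in shCtrl. The summed level was 74.6 to 96.6 CPM per kb in shCtrl replicates 1 to 3, 253 in shCtrl replicate 4, and 46.3 to 80.5 in shTlr7. Of the Jun family sum, which leaves Jund out, Jun made up 24% to 24.9% in shCtrl replicates 1 to 3 and 34% in replicate 4, against 35.8% to 41.1% in shTlr7 replicates 1 to 3 and 26.5% in replicate 4. These shares are descriptions without a test.

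**Figure D4:**
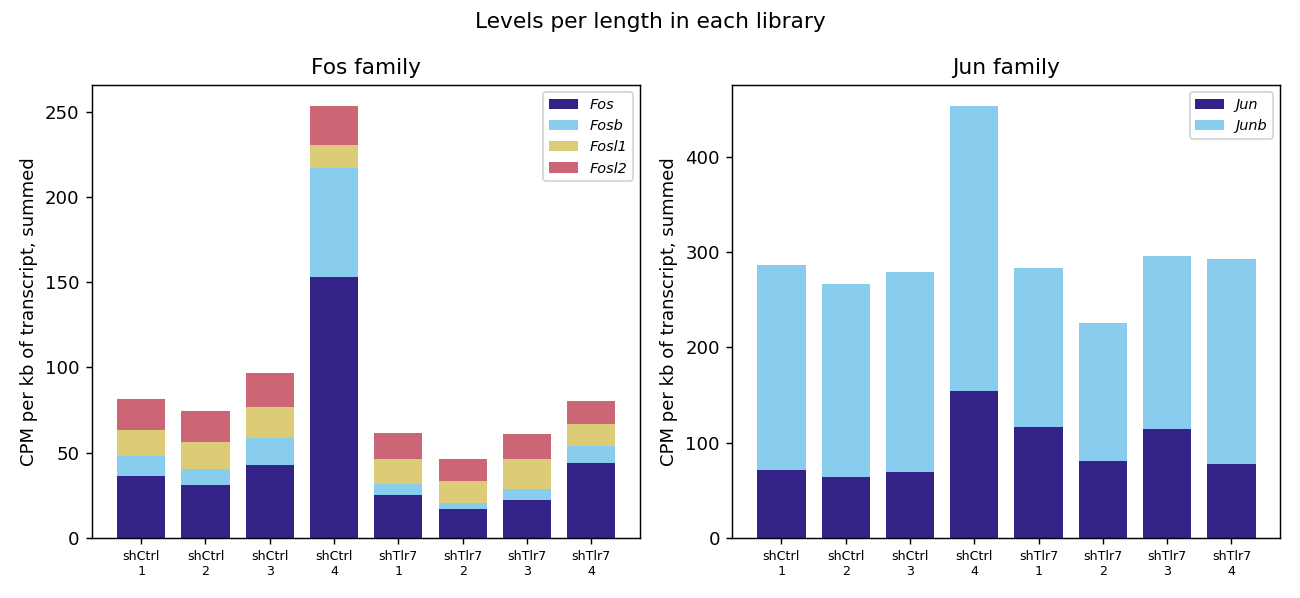
CPM per kilobase of transcript (y axis, stacked bars from 0) of the Fos family (left) and of Jun and Junb (right) in each of the 8 libraries. The Fos family sum reaches 253 in shCtrl replicate 4 and 46.3 to 96.6 in the other 7 libraries, and Junb is the larger part of the Jun family sum in all 8.

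The genes whose profile over the 8 libraries lay nearest to each member were sought among 10470 others, by the root mean square difference of centred log2 CPM. Fos and Fosb were each other's nearest gene, at 0.32 log2 units, followed for Fos by the long non-coding RNA Fendrr (0.45) and for Fosb by the transglutaminase subunit F13a1 (0.63). Nearest to Jun were the keratin Krt87 (0.17), the matricellular immediate early gene Ccn1 (0.18) and the natriuretic peptide gene Nppb (0.19). Nearest to Junb were the collagen Col7a1 (0.06), the homeobox gene Hoxa7 (0.07) and the immediate early factor Egr3 (0.09). Fosl2 lay nearest to Morc2a (0.06), the cytokine gene Lif (0.06) and the polyadenylation factor Cpsf7 (0.06), Fosl1 near Timm8a1 and Ltv1 (0.09 each), and Maff near Slc25a38 (0.05) and Mccc2 (0.06). Profiles with a small spread have small distances by construction, so distances are not comparable between members.

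Transcripts of proteins that pair or compete with AP-1 proteins changed in both directions. Of 22 tested partner and competing basic leucine zipper factors, 8 were higher and 11 lower, 36.4% and 50% beside 29.3% and 26.8% of all tested genes, with a median log2 fold change of -0.09. Atf3, a stress-induced factor that dimerises with Jun, was at 18.8, 14.8, 14.8 and 17.9 CPM in shCtrl and 157, 94.8, 142 and 33.1 CPM in shTlr7. All shTlr7 libraries were above all shCtrl libraries, in the same order within shTlr7 as those of Jun, highest in replicate 1 and lowest in replicate 4 (log2 fold change 2.69 ± 0.51 SE, edgeR adjusted p = 0.00453). Within shCtrl the order differed, Atf3 being highest in replicate 1 and Jun in replicate 4. Jdp2, a repressor that pairs with Jun, rose from 16.9 to 25.3 CPM in shCtrl to 26.7 to 32.5 CPM in shTlr7 (log2 fold change 0.48, edgeR adjusted p = 0.00244). Atf5 rose by 0.86 and the low-level Batf2 by 2.22 on the log2 scale, from 2 to 10 counts per shCtrl library to 15 to 114 per shTlr7 library. The large Maf gene Mafa fell by 0.80, the Maf partner Bach1 by 0.50 and Creb1, which binds the CRE, by 0.34.

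Kinases, ligases and factors that act on AP-1 genes or proteins changed in both directions. Of 33 tested, 7 were higher and 7 lower, 21.2% in each direction beside 29.3% and 26.8% of all tested genes, with a median log2 fold change of 0.01. Elk3, an ETS factor that binds with serum response factor, fell from 372 to 411 CPM in shCtrl to 218 to 229 CPM in shTlr7 (log2 fold change -0.84 ± 0.04 SE, edgeR adjusted p = 3.07e-09). The ERK gene Mapk3 fell by 0.65 on the log2 scale, and the p38 activating kinase Map2k6 fell by 1.09 from a level under 1 CPM, a call that was lost when all libraries were thinned to the smallest total (edgeR adjusted p = 0.0551). Map2k3, another p38 activating kinase, rose by 0.54, and the ERK phosphatase Dusp6 by 0.65. Under scaling by library size alone, which moved the median fold change of all genes to 0.12, 15 members of this list were higher and 5 lower, beside 41.2% and 18.6% of all tested genes.

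Of the 31 tested immediate early genes outside AP-1, 10 were higher (32.3%) and 7 lower (22.6%) beside the same background shares, with a median log2 fold change of 0.12. The matricellular Ccn2 fell by 1.33 on the log2 scale, from 47.9 to 56.1 CPM in shCtrl to 16.6 to 23.3 CPM in shTlr7 (edgeR adjusted p = 6.23e-07). Nfkbiz, an NF-kB cofactor, fell by 1.24, the kinase Sik1 by 0.91 and the mRNA decay factor Zfp36l2 by 0.43, while the ERK phosphatase Dusp5 rose by 0.75. Without both libraries numbered 4, 16 members were higher and 7 lower, beside 31.3% and 30% of all genes tested in that fit.

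Genes known as AP-1 targets were mostly lower. Of 42 tested, 25 were lower (59.5%, beside 26.8% of all tested genes) and 9 higher (21.4%, beside 29.3%), with a median log2 fold change of -0.52 beside 0.01. The list was drawn up with earlier results of these data known, so its direction is no independent evidence. The summed epithelial markers were lower in shTlr7 as well, as given above, and their part in this count was not tested. The nucleotidase gene Nt5e fell from 679 to 715 CPM in shCtrl to 285 to 308 CPM in shTlr7 (log2 fold change -1.24 ± 0.04 SE, edgeR adjusted p = 5.35e-11). In the same order of groups, Lama3, a laminin subunit, fell from 388 to 440 CPM to 99.9 to 114 CPM, the metalloprotease Mmp14 from 760 to 795 CPM to 349 to 366 CPM, and the urokinase gene Plau from 485 to 513 CPM to 112 to 142 CPM. In all 4 genes shCtrl replicate 4 was the lowest shCtrl library, and every shTlr7 library lay below every shCtrl library. Over the whole list, 13 of the 42 were highest in shCtrl replicate 4 among the shCtrl libraries (31%, beside 36.3% of all tested genes). The proliferin genes Prl2c2 and Prl2c3 were at 1.67 to 2.40 and 8.84 to 9.94 CPM in shCtrl and at 0 to 0.0571 and 0.0536 to 0.656 CPM in shTlr7, and belong to a family of near-identical genes whose reads may be split. The higher members included Hmox1, Ccl2, Mt1, Mt2, Areg, Axl, Met and Tgfb1, named after their values were seen, with log2 fold changes from 0.23 for Tgfb1 to 1.42 for Ccl2.

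**Figure D5:**
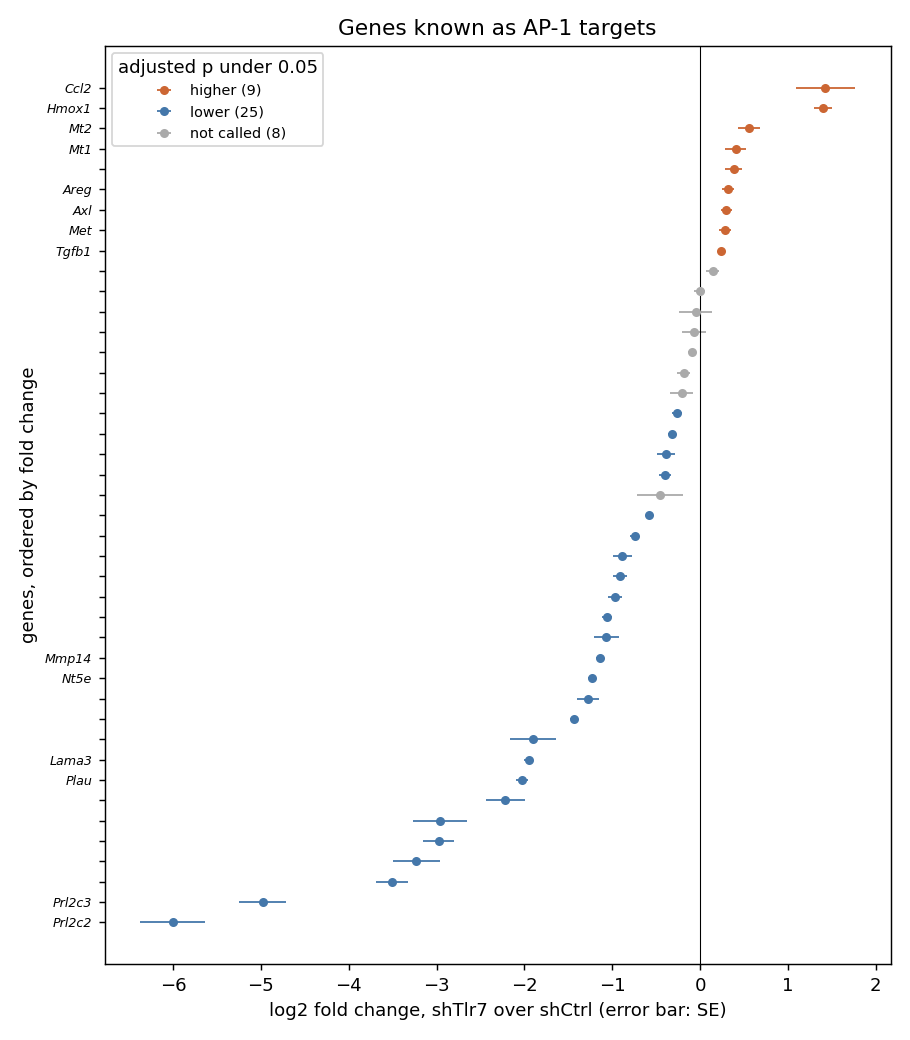
Log2 fold change of shTlr7 over shCtrl (x axis, error bars SE) of the 42 tested genes known as AP-1 targets (y axis, ordered by fold change, with some named), coloured by edgeR call: 25 lower, 9 higher and 8 not called. The points run from the proliferin gene Prl2c2, whose shTlr7 level rests on 0 to 3 counts per library, to Ccl2 at 1.42.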

How the data were processed

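The authors deposited raw read counts per gene for 8 libraries (totals 18.1 to 93.8 M). STAR 2.7.5, DESeq2 1.32.0 and the build GRCm38 are named, with no role, per the submitters' processing notes. Which program and annotation gave the counts, and whether strand was used, is not given in the sources used here. Groups and replicate numbers come from the sample titles.

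The main test used edgeR 4.0.16 under R 4.3.3: filterByExpr on the groups (13393 genes kept), TMM scaling, robust glmQLFit and glmQLFTest with group as the only term, Benjamini-Hochberg adjustment over all tested genes and a threshold of 0.05. Standard errors are the log2 fold change over the square root of F. CPM use TMM-scaled library sizes. Alternatives used limma 3.58.1 and DESeq2 1.42.0, other scalings and filters, thinning, copies summed, a replicate block, and libraries left out. Lengths and exon overlaps come from GENCODE M21 (GRCm38), coordinates from RefSeq GRCm38.p6.

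The members and lists were chosen with earlier results of these data known. Named are all members, per list the 5 tested genes with the lowest p and the 2 called genes with the largest change, Atf3, Egr1 and Jdp2, and the 3 nearest genes of each member (average log2 CPM of at least 1, without predicted, clone, pseudogene or copy names). A log2 prior count of 2 was used for the nearest genes and 0.5 CPM was added in log2 library ratios. The scripts were tested on simulated data. Some genes that this rule names are not reported here.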

Additional observations from a re-analysis of the deposited data

Results flagged for a closer look

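Within each group of 4 libraries, a value was marked where its gap to the nearest other library, divided by the range of the group, was above Dixon's critical value for 4 samples. Chance marks about 1 in 20 groups, and here 11 of 68 groups of named genes were marked. For the AP-1 members all marks fell on shCtrl replicate 4. Fos was at 323 CPM there, beside 64.8 to 90.7 CPM in the other shCtrl libraries. Fosb was at 242 CPM, beside 36.6 to 58.1 CPM. Jun was at 491 CPM, beside 204 to 227 CPM, and Junb at 541 CPM, beside 366 to 390 CPM.

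Of the other genes, Egr1 (385 CPM, beside 141 to 159), Nfkbiz (169 CPM, beside 121 to 125) and Dusp6 (206 CPM, beside 170 to 173) were high and Mafa (10.8 CPM, beside 12.0 to 12.2) was low in the same library. The remaining marks were Creb1 at 126 CPM in shCtrl replicate 2, Bach1 at 59.4 CPM in shTlr7 replicate 1 and Zfp36l2 at 300 CPM in shTlr7 replicate 2.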

How the results depend on the processing

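Fosl2 stayed lower and past the threshold in all 20 alternative fits, and Fosl1 and Maff were never called. Fos was called with the replicate block (-1.07, edgeR adjusted p = 0.0384) and without both libraries numbered 4 (-0.82). Fosb was called with DESeq2 (-1.97), limma-voom (-1.51), the replicate block (-1.64, edgeR adjusted p = 0.0385) and without both libraries numbered 4 (-1.23). Junb was called with limma-voom (-0.38), the replicate block (-0.39, edgeR adjusted p = 3.99e-06), without shTlr7 replicate 4 (-0.50) and without both libraries numbered 4 (-0.36), and Jun only in the last of these (0.59). Without both libraries numbered 1, Jun turned to -0.08 and Maff to -0.01. Leaving out 1 library moved Jun from -0.02 to 0.50, Maff from -0.02 to 0.09, Junb from -0.50 to -0.25, Fos from -1.65 to -0.46 and Fosb from -2.27 to -0.95, and Egr1 from -0.60 to 0.02, the sign turning without shCtrl replicate 4. The cause of these moves was not tested. Lower members numbered 1 in the analysis as reported (26.8% of all genes lower), 2 with DESeq2 (20.8%), 3 with limma-voom (30.7%), 4 with the replicate block (29.9%), 4 without both libraries numbered 4 (30%), and 1 to 2 when 1 library was left out (24.1% to 28%). Higher members numbered 1 without both libraries numbered 4 (31.3% of all genes higher).

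The same-numbered libraries correlated at -0.0068, 0.11, 0.12 and 0.38 in their deviations from the group means, not all above 0.1. The libraries numbered 4 had the highest correlation of any pair across the groups, and shCtrl replicate 3 correlated best with shTlr7 replicate 3. In contrast, shCtrl replicates 1 and 2 also correlated best with shTlr7 replicate 3 (0.15 and 0.17). The numbers were therefore not taken to pair the libraries, although those numbered 4 had a shared part. The replicate block raised the calls over all genes from 7517 to 8339.

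As for the lists, higher immediate early genes numbered 16 without both libraries numbered 4 (31.3% of all genes higher) and 6 at an adjusted p under 0.01 (22.4%), and higher upstream factors 15 with library size only (41.2%). With the length of all annotated exons, chosen after seeing the data, levels per kb became 15.2 and 3.91 for Fosb in shCtrl and shTlr7, 13.3 and 9.65 for Fosl2, 182 and 139 for Junb, and 13.5 and 13.9 for Maff.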
